A study of Mus musculus with 8 samples.

Results

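The 9 genes described here encode transcription factors of mesenchymal and limb identity: Twist1, Twist2, Prrx1, Prrx2, Tbx5, Tbx15, Meis1, Meis2 and Runx1. They were chosen by name with earlier results of these data known, so their shares beside all genes describe this choice of genes alone. They are 9 of 21938 protein-coding genes on the assembled mouse chromosomes. Their ASH2L sites were gathered by position from the list of 6444 sites that the authors compiled over all samples (mm10), first within 1 kb and 10 kb of any annotated transcription start site (TSS) and then inside the gene body, and 31 sites met the wider definition. The cells were iMEF, immortalised mouse embryo fibroblasts in which exon 4 of the endogenous Ash2l alleles can be deleted by Cre recombinase. A lentiviral human ASH2L carrying an FKBP12 F36V degradation domain and HA epitopes (FKBP-HA2-ASH2L) replaced the endogenous protein in all groups, and the study worked mainly with 1 clone, NG3, though the labels name none. The 8 libraries formed 4 groups of 2 replicates: ASH2L precipitates and inputs from cells without dTAG, labelled WT, and the same after 1 h of dTAG, which targets FKBP fusion proteins for degradation by way of a ubiquitin ligase. The labels name the antibody as Ash2l, whereas the study's methods describe antibodies against HA. The list gives a chromosome, a start and an end for each site and no signal per library, so the depth of the libraries, the error between replicates and the loss of ASH2L upon dTAG treatment were not analysed here. Sites and genes are not replicates, and every count below describes this list without a test. Whether these cells express the 9 factors was not analysed here either.

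ASH2L is a core subunit of the KMT2 complexes, which methylate lysine 4 of histone H3 at promoters and enhancers. Many promoters sit on CpG islands. Genes of developmental transcription factors commonly carry several CpG islands that extend beyond the start into the gene. TWIST1 and TWIST2 are basic helix-loop-helix factors of embryonic mesenchyme, PRRX1 and PRRX2 are paired-type homeodomain proteins of limb bud and craniofacial mesenchyme, TBX5 starts forelimb outgrowth, TBX15 acts in skeletal and dermal mesenchyme, MEIS1 and MEIS2 mark the proximal limb as cofactors of HOX proteins, and RUNX1 is best known from the emergence of blood stem cells and is also made in mesenchymal progenitors.

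ASH2L sites were present at 6 of the 9 genes: Twist1, Twist2, Prrx1, Tbx15, Meis2 and Runx1. Each of the 6 had a site centred within 1 kb of a TSS, compared with 14.0% of all protein-coding genes, and the same 6 had one within 10 kb, compared with 19.3%, and one inside the gene body, compared with 15.8%. Prrx2, Tbx5 and Meis1 had no site in any of these windows. There were 9 sites within 1 kb, 29 within 10 kb and 26 inside gene bodies, and Tbx15 alone accounted for 12 of the 29 and 11 of the 26. Without Tbx15, 17 and 15 remained. Gene length ranged from 2.16 kb at Twist1 to 225 kb at Runx1, against a median of 17.4 kb over all protein-coding genes. A CpG island lay within 1 kb of a TSS of all 9 genes, and of 16099 of the 21938 protein-coding genes. Of the protein-coding genes with such an island, 19.0% had a site. The number of starts differed widely among the genes, from 1 at Twist1 to 16 at Meis2, against a median of 3 over all protein-coding genes. With only the 5′-most start of each gene, 3 of the 9 (Twist1, Twist2 and Prrx1) had a site within 1 kb, beside 12.3% of all protein-coding genes. The map of the 9 loci places the sites against the islands and the starts.

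**Figure D1:**
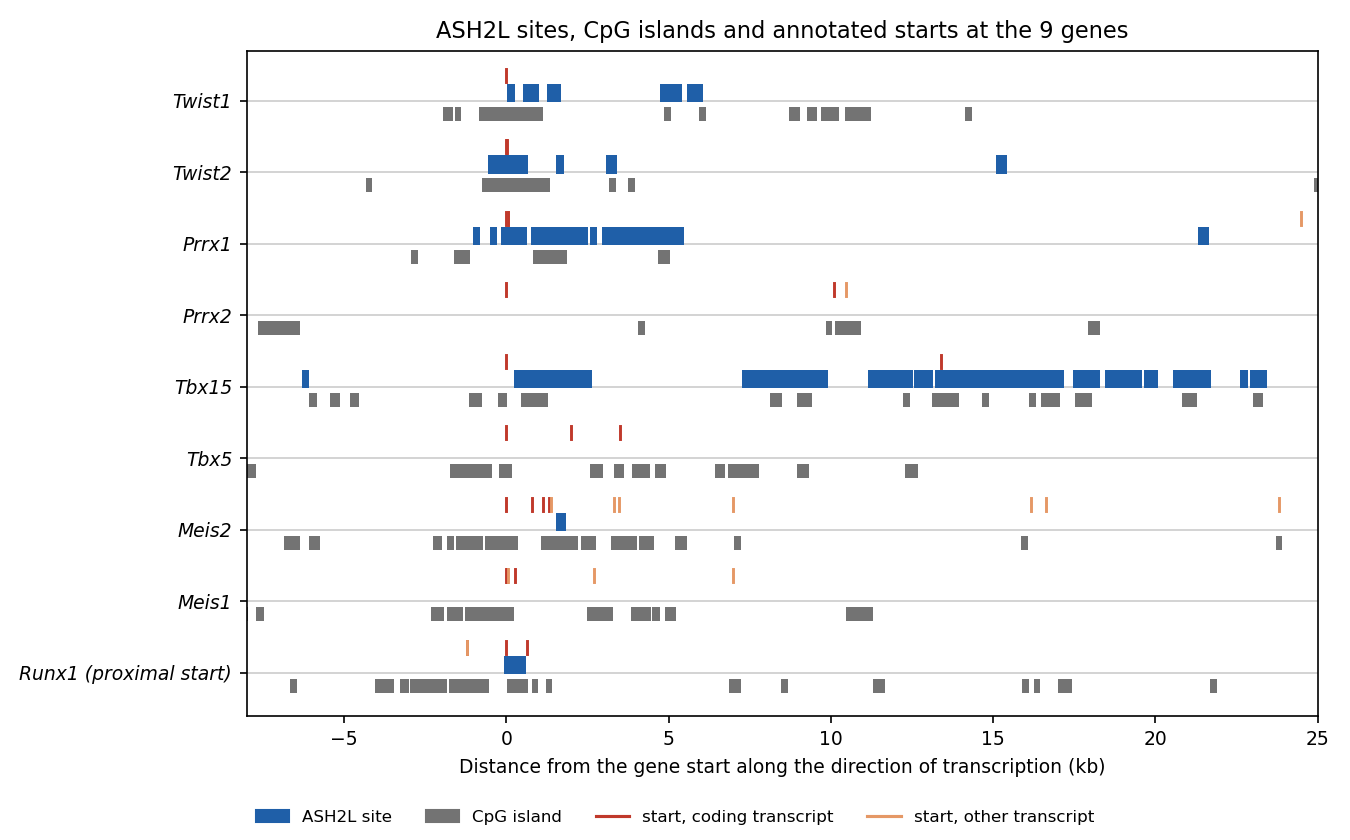
ASH2L sites (blue), CpG islands (grey) and annotated starts (red for coding, orange for other transcripts) are drawn to scale against the distance in kb from the gene start, with Runx1 drawn from a start of its proximal promoter, 130024 bp into the gene. Sites run over 12.3 kb of Tbx15 and 6.48 kb of Prrx1 with gaps under 1 kb, and no site is drawn at Prrx2, Tbx5 or Meis1.

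Twist1, needed for neural tube closure and cranial mesenchyme, is a short gene of 2.16 kb on chromosome 12 (chr12:33957671-33959829, plus strand) and had 5 sites within 10 kb. Only 68 protein-coding genes, Twist1 included, had at least as many. The first site was 246 bp wide (chr12:33957681-33957926) and was centred at +132 bp in the 5′ UTR. The second, of 497 bp (chr12:33958195-33958691), was centred at +772 bp in the coding sequence. Both lay wholly in the 1951-bp island that spans the start, with observed to expected CpG ratios of 0.88 and 0.87 and GC contents of 80.5% and 68.8%. The third, of 453 bp (chr12:33958912-33959364), covered the intron at +1467 bp, overlapped no island and had a ratio of 0.38. A pair of sites of 700 bp and 490 bp lay downstream of the gene, centred at +5070 and +5825 bp (chr12:33962392-33963091 and chr12:33963252-33963741), where Twist1 is still the gene with the nearest start. Of the 3.79 kb of island sequence within 10 kb, 28.9% was inside sites.

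Twist2, the paralog of Twist1 that is known from dermal fibroblasts and their precursors, had a single wide site over its start and 3 narrower ones inside its gene body (chr1:91801461-91848028, plus strand). The site at the start measured 1233 bp (chr1:91800882-91802114), was centred at +28 bp from the nearer of its 2 starts and held 110 CpG dinucleotides with a ratio of 0.82. It lay wholly in a 2113-bp island. It ranked 115th in width among all 6428 sites on assembled chromosomes. The sites at +1641 bp (255 bp wide) and +3226 bp (343 bp wide) were nearer to a start of the antisense transcript Gm29100 than to a start of Twist2, so position alone does not assign them to either transcript. The fourth, 344 bp wide at +15257 bp, was beyond 10 kb and nearest to Gm29101, a sense intronic transcript. The stretch of the wide site directly upstream of the first start (chr1:91801261-91801460, GRCm38.p6 of RefSeq, plus strand, 5′ to 3′) is printed as an example of an island promoter under ASH2L, with its 16 CpG dinucleotides in capitals.
Twist2 upstream: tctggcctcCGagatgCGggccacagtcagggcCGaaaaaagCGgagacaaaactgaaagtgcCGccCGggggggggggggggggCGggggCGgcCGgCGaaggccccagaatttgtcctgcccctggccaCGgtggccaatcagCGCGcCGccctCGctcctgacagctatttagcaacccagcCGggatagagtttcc

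Prrx1, a classical marker of limb bud mesenchyme, carried 7 sites within 10 kb (chr1:163245119-163313710, minus strand), a number that 40 protein-coding genes reached or passed. Together they covered 6.05 kb. It was also the member with the most sites within 1 kb, namely 3, centred at -916, -389 and +201 bp, which measured 200, 232 and 795 bp. None of the 3 overlapped a CpG island, and their CpG ratios were 0.44, 0.68 and 0.40. The islands nearby lay to either side, and the intronic one of 1039 bp was inside the fourth site, which was 1756 bp wide (chr1:163311207-163312962) and centred at +1584 bp. The fifth site was 242 bp wide. The sixth was the widest, with 2506 bp (chr1:163308250-163310755) and a rank of 34 among all sites, but only 14.5% of it was island and its ratio was 0.37. It was centred at +4166 bp and was 435 bp from a start of Gm37644, a transcript still to be experimentally verified. Gaps between these 6 sites ranged from 58 to 311 bp, so that 88.5% of a stretch of 6.48 kb was inside a site. The last site lay alone at +21483 bp from the gene start (chr1:163292068-163292386), in an intron, with a ratio of 0.14. It counted as within 10 kb only through the start of a noncoding transcript 24486 bp into the gene, from which it was at -3003 bp. With starts of protein-coding transcripts only, Prrx1 had 6 sites within 10 kb. A set of 3 windows of Prrx1 are shown in the direction of the gene (minus strand, GRCm38.p6 of RefSeq), because they show the range of base composition under ASH2L at 1 gene. They are the whole second site upstream of the start (chr1:163313984-163314215, 7 CpG dinucleotides), the centre of the fourth site in the island (chr1:163311985-163312184, 16) and the centre of the seventh (chr1:163292128-163292327, 2). Capitals mark CpG in the first 2 and, in the third, the match to the AP-1 letters TGACTCA on the opposite strand.
Prrx1 site 2: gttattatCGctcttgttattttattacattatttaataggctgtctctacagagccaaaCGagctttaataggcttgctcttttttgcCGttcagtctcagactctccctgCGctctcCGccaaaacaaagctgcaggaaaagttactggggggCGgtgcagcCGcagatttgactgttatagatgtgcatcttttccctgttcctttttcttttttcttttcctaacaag
Prrx1 site 4: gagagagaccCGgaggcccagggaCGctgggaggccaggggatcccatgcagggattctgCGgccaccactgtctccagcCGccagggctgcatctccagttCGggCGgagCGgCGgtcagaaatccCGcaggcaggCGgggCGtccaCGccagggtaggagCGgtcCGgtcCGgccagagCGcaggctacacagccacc
Prrx1 site 7: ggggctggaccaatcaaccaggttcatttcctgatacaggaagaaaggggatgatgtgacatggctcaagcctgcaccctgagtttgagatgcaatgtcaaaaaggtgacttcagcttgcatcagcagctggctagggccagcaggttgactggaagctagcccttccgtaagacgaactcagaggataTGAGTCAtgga

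Prrx2, which acts redundantly with Prrx1 in the limb, had no site (chr2:30834972-30881251, plus strand). The nearest one in the list was 169770 bp downstream of its last start, close to Fnbp1, and 35.6% of protein-coding genes had their nearest site at least as far away (median over all genes 93.8 kb). The islands within 10 kb of its 4 starts summed to 3.77 kb, compared with 2.10 kb at Prrx1, of which 66.7% was inside sites. The sequence upstream of its second coding start (chr2:30844859-30845058, plus strand, GRCm38.p6 of RefSeq), with 8 CpG dinucleotides in capitals and a ratio of 0.54, is shown as a stretch without a site.
Prrx2 upstream 2: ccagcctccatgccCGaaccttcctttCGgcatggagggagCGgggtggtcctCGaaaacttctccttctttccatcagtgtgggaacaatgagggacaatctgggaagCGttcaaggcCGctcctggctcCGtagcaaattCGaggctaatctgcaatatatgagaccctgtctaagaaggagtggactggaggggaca

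Tbx15 had 12 sites within 10 kb of a TSS, more than any other member, and they covered 15.5 kb (chr3:99240381-99354259, plus strand). Over all protein-coding genes, 12 had at least as many sites and 4 had at least as many covered bases, Tbx15 included in both. The 12 were summed over 3 starts, and Tbx15 had 3 sites within 10 kb of its 5′-most start, 6 within 5 kb of any start and 4 within 10 kb once sites less than 1 kb apart were merged. All but the first site, at -6191 bp, were intronic. No site was centred within 1 kb of the first start, where the nearest was a 2379-bp site at +1438 bp (chr3:99240630-99243008). A site of 571 bp (chr3:99252949-99253519) lay at -526 bp of the second start, which is 13379 bp into the gene, and the next one, of 3963 bp (chr3:99253598-99257560), covered that start itself although its centre was at +1819 bp. This was the widest member site and the sixth widest in the whole list. In total 6 of the 12 were wider than 1 kb, with ranks of 6, 27, 38, 88, 126 and 129. From 11136 to 23431 bp into the gene, 9 sites followed each other with gaps of 33 to 890 bp and filled 83.4% of 12.3 kb. The last 6 of these had their nearest start in the antisense transcript Gm43120. CpG ratios ranged only from 0.14 to 0.57 over the 12 sites, and 32.6% of their bases were in islands, yet the sites took in 75.4% of the 6.68 kb of island sequence around the gene. The centre of the widest site (chr3:99255480-99255679) and that of a 1129-bp site at +19022 bp from the gene start (chr3:99259304-99259503) are printed because CpG dinucleotides were few at these centres, 3 in the former and 0 in the latter (plus strand, GRCm38.p6 of RefSeq, CpG in capitals). Over their whole widths the sites held 151 and 8 CpG dinucleotides with ratios of 0.57 and 0.18.
Tbx15 site 6: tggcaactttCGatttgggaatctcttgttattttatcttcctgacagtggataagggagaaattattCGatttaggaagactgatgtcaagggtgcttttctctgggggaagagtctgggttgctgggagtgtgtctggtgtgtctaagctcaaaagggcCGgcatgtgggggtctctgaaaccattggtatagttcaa
Tbx15 site 8: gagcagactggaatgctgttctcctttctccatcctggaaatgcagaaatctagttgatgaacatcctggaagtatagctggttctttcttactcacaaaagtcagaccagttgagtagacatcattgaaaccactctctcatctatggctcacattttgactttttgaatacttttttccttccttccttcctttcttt

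Tbx5, the forelimb T-box factor, had no site within its gene or 10 kb of its 3 starts (chr5:119832668-119885219, plus strand). Its nearest site was 159269 bp upstream, beside Tbx3os1, and 37.1% of protein-coding genes had theirs at least as far away. Islands within 10 kb amounted to 5.75 kb, compared with 6.68 kb at Tbx15, with 0% of them inside sites. The window before its first start (chr5:119832468-119832667, plus strand, GRCm38.p6 of RefSeq) held 12 CpG dinucleotides, shown in capitals, and a ratio of 0.66. In the 500 bp to either side of each start, the ratio was 0.43, 0.12 and 0.41 at the 3 starts of Tbx5, and 0.36, 0.76 and 0.13 at those of Tbx15.
Tbx5 upstream 1: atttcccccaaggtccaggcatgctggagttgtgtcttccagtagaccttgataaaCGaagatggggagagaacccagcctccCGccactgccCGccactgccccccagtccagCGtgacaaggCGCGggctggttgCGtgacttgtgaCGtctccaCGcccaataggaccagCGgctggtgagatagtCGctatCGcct

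The Meis genes each carried many islands and few or no sites. Meis2 (chr2:115863064-116065839, minus strand) had 1 site of 316 bp (chr2:116064001-116064316) in a UTR, 310 bp downstream of the nearest start and 1681 bp from the gene start, wholly in a 1151-bp island. Its CpG ratio of 1.03 was the highest of the 31 sites. The islands within 10 kb of the 16 starts of Meis2 summed to 9.64 kb over a window of 67890 bp, and 3.28% of that was inside the site. Meis1 (chr11:18879817-19018985, minus strand), which is also known as a cofactor in leukaemia, had no site. The nearest was 464244 bp upstream, a distance reached or passed at 15.0% of protein-coding genes, and 6.33 kb of island lay around its 7 starts, in a window of 26984 bp. With islands of at least 500 bp only, Meis1 had 4.56 kb and Meis2 4.16 kb, so the order of the pair depended on the island definition. The window before the first start of Meis1 (chr11:19018986-19019185, minus strand, GRCm38.p6 of RefSeq) held 11 CpG dinucleotides, shown in capitals, with a ratio of 0.59.
Meis1 upstream 1: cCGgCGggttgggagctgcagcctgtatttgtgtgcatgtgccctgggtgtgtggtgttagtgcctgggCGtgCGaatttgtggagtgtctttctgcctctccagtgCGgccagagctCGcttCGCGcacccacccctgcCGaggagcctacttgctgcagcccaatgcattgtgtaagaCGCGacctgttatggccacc

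Runx1 is transcribed from a distal and a proximal promoter, and ASH2L was listed at the proximal one (chr16:92601466-92826149, minus strand). A site of 678 bp (chr16:92695513-92696190) was centred 130298 bp into the gene, at +274 bp of the sixth annotated start and -356 bp of the seventh, and 87.8% of it was in an island, with a ratio of 0.82. From the most upstream start of the proximal group it was 1477 bp away, and none of the starts of the distal group had a site within 10 kb. A second site, 200 bp wide (chr16:92654086-92654285), was intronic and 41310 bp from the nearest start, with a ratio of 0.29. Of the 5.73 kb of island sequence within 10 kb of the starts, 10.4% was inside a site.

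**Figure D2:**
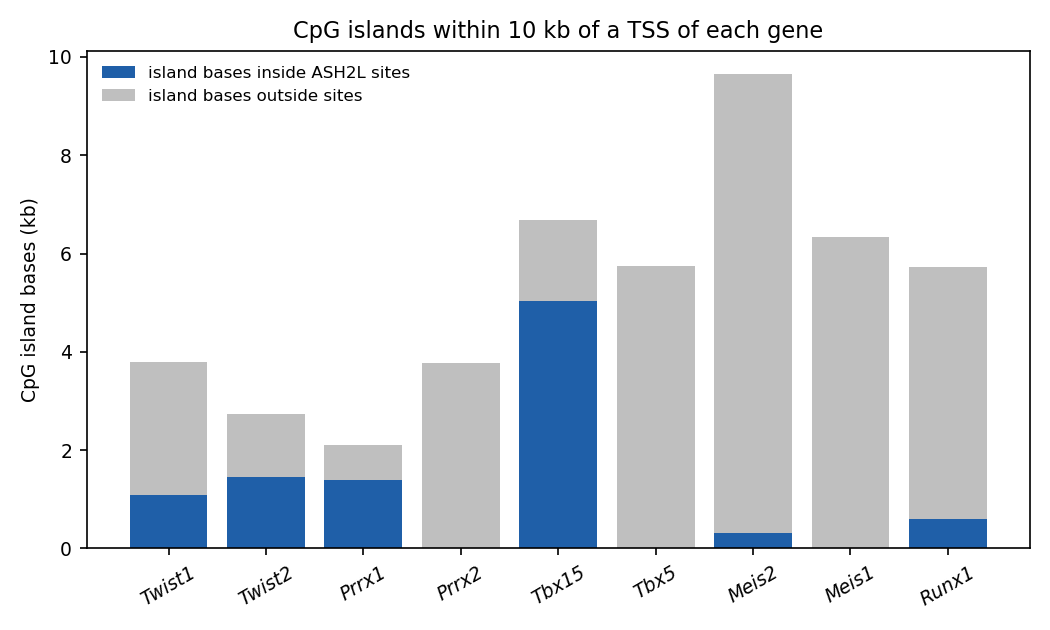
Bars give the CpG island sequence within 10 kb of any TSS of each gene in kb, with the bases inside ASH2L sites in blue and the rest in grey. The windows differ in length from 20001 bp at Twist1 to 67890 bp at Meis2. This affects the height of a bar and also the blue share within it, which was 3.28% at Meis2 and 75.4% at Tbx15.

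The kb of island depended on the window searched, which grew with the spread of the starts, and on the island definition. With islands of at least 500 bp, Prrx2, Tbx5 and Meis1, without a site, had 2.11, 2.79 and 4.56 kb. Prrx1, Twist2, Twist1, Tbx15, Runx1 and Meis2, with sites, had 1.04, 2.11, 2.25, 2.85, 3.58 and 4.16 kb, so the ranges of the 3 and the 6 genes overlapped. By family, both Twist genes had sites at their starts, while Prrx1, Tbx15 and Meis2 had sites and their relatives Prrx2, Tbx5 and Meis1 had none.

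A few members had several sites near their starts. Twist1 with 2 and Prrx1 with 3 were the 2 of 9 genes that had at least 2 sites within 1 kb, compared with 2.07% of protein-coding genes. Twist1, Prrx1 and Tbx15, 3 of 9, had at least 4 sites within 10 kb, compared with 0.511%. With the 5′-most start only, Twist1 and Prrx1 had them, 2 of 9 beside 0.383% of protein-coding genes, and with neighbouring sites merged only Tbx15 kept 4, 1 of 9 beside 0.0866%. Among the 4232 protein-coding genes with a site within 10 kb, 3339 had exactly 1, as had Meis2 and Runx1, and 134 had 3, as had Twist2. The median length covered by sites within 10 kb was 350 bp over those genes, and it was 316 bp at Meis2, 678 bp at Runx1, 1831 bp at Twist2, 2386 bp at Twist1, 6050 bp at Prrx1 and 15476 bp at Tbx15. When sites less than 1 kb apart were joined, the list formed 5608 stretches, of which 30 held at least 5 sites. Those at Tbx15 and Prrx1, with 9 and 6 sites, were among the 30, and 3 and 11 stretches of the list, respectively, were at least as long as these.

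**Figure D3:**
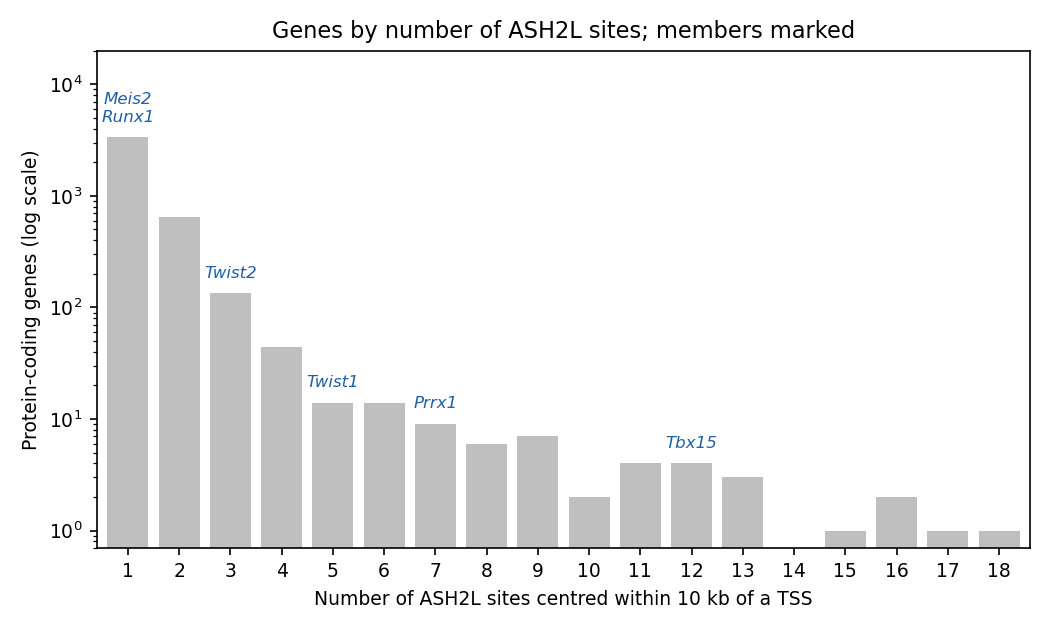
Bars give the number of protein-coding genes (log scale) by the number of ASH2L sites centred within 10 kb of a TSS, and the members with a site are named above their bar. Meis2 and Runx1 fall among the 3339 genes with 1 site, whereas Tbx15 with 12 is 1 of 4 genes in its bar.

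Width and base composition set the member sites beside the rest of the list. The 31 sites summed to 27.3 kb and ranged from 200 bp, the smallest width in the list, to 3963 bp. Their median was 497 bp and that of all sites 268 bp. Wider than 1 kb were 9 of the 31, compared with 2.47% of all sites, and they belonged to Tbx15 (6), Prrx1 (2) and Twist2 (1). The median CpG ratio was 0.42 over the 31 sites and 0.52 over all 6428 sites on assembled chromosomes. Classed by the nearest TSS of any gene, 12 member sites lay within 1 kb, and their median ratio was 0.57, compared with 0.87 over the 3377 such sites of the list. Over the 9 sites near the members' own starts it was 0.82. Farther than 3 kb from any TSS were 8 member sites with a median ratio of 0.42, compared with 0.19 over 2389 sites of the list. Of the bases of the 31 sites, 36.3% lay in islands, compared with 54.7% over all sites, whereas by count 19 of the 31 sites (61.3%) overlapped an island, compared with 51.9% of all sites. An overlap could be as short as 1 bp, as at the first site of Tbx15. Some of the islands were short, such as 212 bp at the third site of Twist2 and 201 bp at the fourth of Tbx15. The island shares in this paragraph used the 200-bp minimum, and only that of the 9 sites near the members' own starts was recomputed with longer islands. Without Tbx15 the median ratio was also 0.42, 41.1% of bases were in islands and 10 of 19 sites (52.6%) overlapped one. The 9 wide member sites had a median ratio of 0.46 with 37.4% of bases in islands, and the other 150 wide sites of the list had 0.80 and 67.4%. Of the 12 member sites within 1 kb of a TSS of any gene, 8 overlapped an island (66.7%), compared with 89.0% of all such sites, and the 4 that did not were 3 neighbouring sites of Prrx1 and the second site of Twist2. Of the 9 near the members' own starts, 6 did. Farther than 3 kb from any TSS, 5 of 8 member sites overlapped an island (62.5%), compared with 7.20% of the list. The longest islands met by these 5 were short, with 213 and 206 bp at Twist1 and 258, 467 and 544 bp at Tbx15. Site width was not matched in this comparison.

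**Figure D4:**
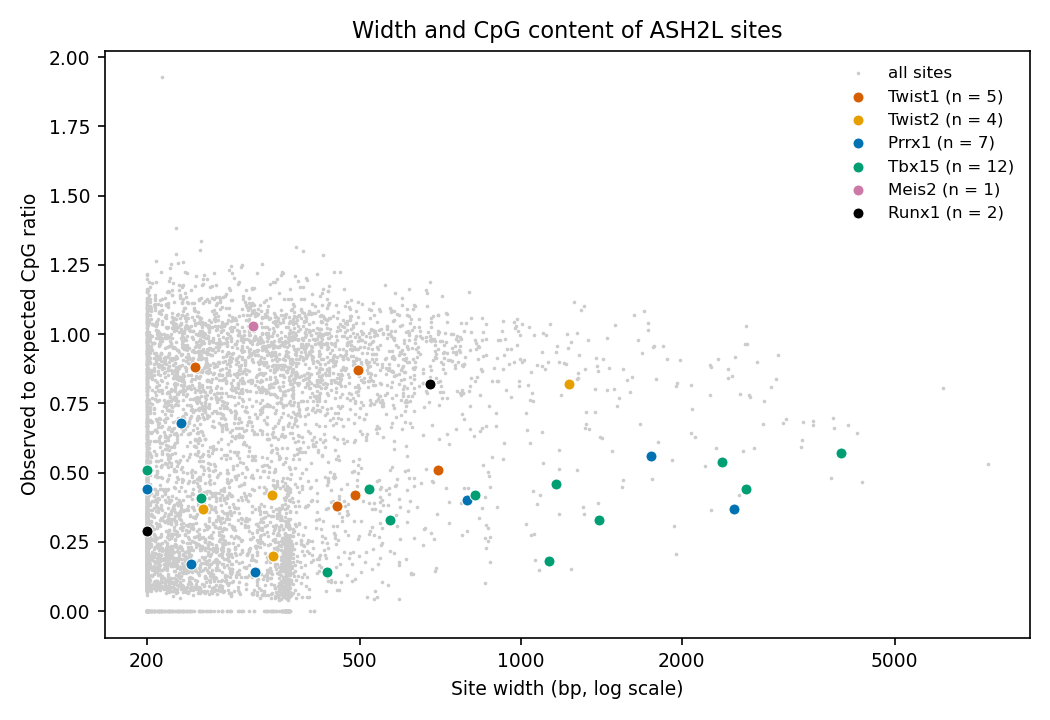
Each point is an ASH2L site, with its width in bp on a log axis and its observed to expected CpG ratio. The sites of Tbx15 (n = 12) and Prrx1 (n = 7) stay between 0.14 and 0.68 at all widths up to 3963 bp, and those at Meis2 and at the proximal Runx1 start are at 1.03 and 0.82.

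By the position of its centre, 19 of the 31 sites were intronic, 3 were in a 5′ UTR, 1 in a 3′ UTR, 2 in a UTR of undivided annotation, 1 in coding sequence, 3 upstream and 2 downstream of the gene. Tbx15 alone held 11 of the 19 intronic sites. The shares over the whole list were not computed, so these counts do not tell whether intronic placement was unusual. The letters bound by the families themselves were searched on both strands in the 200 bp around each site centre, and a match is only a match of letters. CATCTG, a form of E-box bound by TWIST proteins, was found in 3 of 31 windows (9.68%), 1 each at Twist1, Prrx1 and Tbx15, and in 10.4% of all sites. TGACAG, the MEIS letters, was found in 4 (12.9%), at Twist2, Prrx1 and Tbx15, and in 10.6% of all sites. AGGTGT, of T-box factors, was found in 2 windows, both at Tbx15 (6.45%, all sites 7.75%), and TGTGGT, of RUNX factors, in 1 at Prrx1 (3.23%, all sites 12.4%). CATATG and TAATTA, the latter of homeodomain proteins, were in none of the windows and in 2.91% and 2.55% of all sites. The AP-1 letters TGACTCA were in 1 window, the intronic seventh site of Prrx1, and in 6.14% of all sites. The shares in the members were at or below those of the list but for TGACAG.

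Relatives of the 9 genes were read in the same way. Of 8 paralogs in the T-box, Meis and Runx families, 4 had a site within 1 kb (Tbx3, Tbx4, Tbx18 and Runx2) and 4 had none within 10 kb (Tbx2, Tbx22, Meis3 and Runx3). Tbx4, the hindlimb relative of Tbx5, had 4 sites within 10 kb where Tbx5 had 0, and Runx2, the regulator of bone formation, had 6 where Runx1 had 1. Tbx18 had a single site of 2079 bp. Among 8 partners, which bind DNA or form dimers with the members, 5 had a site within 1 kb and 6 within 10 kb. The 5 were Pbx3 and Pknox1, which pair with MEIS proteins or share their partners, Cbfb, which encodes the partner of RUNX proteins, and Tcf3 and Tcf12, which encode the E proteins that dimerise with TWIST. Of 30 other mesenchymal and limb factors, all with an island within 1 kb, 4 had a site within 1 kb and 7 within 10 kb. Of 23 factors of other lineages, such as Myod1 of muscle, Neurog1 of neurons and Gata4 of heart and endoderm, 0 had a site within 1 kb or 10 kb, although 21 had an island at a TSS. Such an island was also found at 16099 of the 21938 protein-coding genes. All lists were drawn up with earlier results of these data known, so the shares describe the lists alone.

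**Figure D5:**
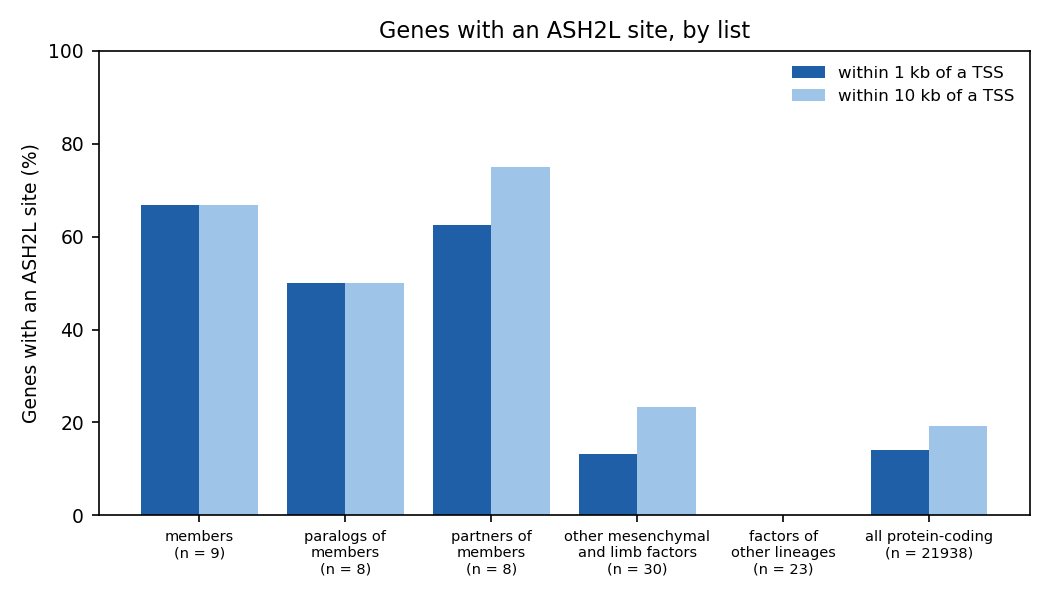
Bars start at 0 and give the percentage of genes in each list with an ASH2L site within 1 kb (dark) and 10 kb (light) of a TSS. The members are at 66.7% for both windows, the other mesenchymal and limb factors at 13.3% and 23.3%, the factors of other lineages at 0.0% and all protein-coding genes at 14.0% and 19.3%.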

How the data were processed

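ChIP-seq of ASH2L and inputs was carried out by the authors in 8 libraries of iMEF cells. Trim Galore was used by them for trimming, BWA for alignment to mm10, SAMtools for filtering, Picard for merging replicates and MACS for narrow peaks. Tool versions are not given in the sources used here. The deposited list holds positions over all samples, and no column per sample. No value column was left unused (0).

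Coordinates are mm10 (GRCm38.p6) and are printed counted from 1. TSSs and gene models came from GENCODE mouse release 21 (the authors used release 25), and a site was placed by its centre. The 16 sites outside the 21 assembled chromosomes were left out. CpG islands were computed from the RefSeq sequence wherever 200 bp or more had over 50% GC and a CpG ratio, observed over expected, above 0.6. Repeats were not masked and 172836 islands were found, whereas the authors took their islands from UCSC. Offsets are negative upstream of a start.

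The members and the gene lists were chosen with earlier results of these data known. A further gene of the partner list is not reported here. All 9 members are named with every site, relatives by list, and neighbours where their start was nearer to a site. Alternatives changed the window, the starts, the placement and merging of sites, the minimum width and the island definition. Scripts were tested on simulated data. Versions were pysam 0.24.0, matplotlib 3.10.9, pandas 2.3.3, SciPy 1.17.1, NumPy 2.4.6 and Python 3.11.15.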

Additional observations from a re-analysis of the deposited data

How the results depend on the processing

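Of 47 alternative values for 8 results, 38 stayed near the value reported and 9 did not. For counts, near meant within 1.5 times. For the island share and the median width within 1 kb, it meant inside a 95% interval computed as if the 9 sites were independent. These intervals were wide, from 35.4% to 87.9% and from 232 to 795 bp, so few alternatives could leave them. With a window of 3 kb 16 sites lay near a start in place of 9. With only the 5′-most start, 3 members had a site within 1 kb, since Tbx15, Meis2 and Runx1 lost theirs, and 18 sites lay within 10 kb. With sites less than 1 kb apart merged, there were 4 sites within 1 kb, at 4 members, 12 within 10 kb and 12 in gene bodies, and the median width within 1 kb was 1181 bp. At Prrx1 and Tbx15 the centre of the merged stretch was then beyond 1 kb of a start. Without Tbx15, an alternative chosen after the data were seen, 17 sites lay within 10 kb and 15 in gene bodies. Starts of the RefSeq annotation, also added after the data were seen, left 5 members with a site within 1 kb, without Runx1, and a window of 500 bp left 5, without Tbx15. Prrx2, Tbx5 and Meis1 had 0 sites in every setting run. No paired analysis was possible because the list has no column per sample, and for the same reason no replicate could be left out, no stricter peak threshold applied and no depth given. The smallest width, 200 bp, was held by 3 of the 31 member sites.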

Other observations

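Among the other mesenchymal and limb factors the sites were unevenly placed. Foxc1 and Foxc2, forkhead factors of mesoderm, had 3 and 5 sites within 10 kb that covered 5464 and 5166 bp, close to the 6050 bp of Prrx1, and of these 0 and 1 were within 1 kb of a start. Zeb1 and Zeb2, zinc finger factors of mesenchymal transition, had 2 sites each within 1 kb, as did Hic1, a factor of mesenchymal progenitors. Shox2 and Pitx1, a stylopod and a hindlimb factor, had 2 and 1 sites within 10 kb and none within 1 kb. The remaining 23 of the 30, among them Hand2, Msx1, Sox9, Snai1 and Snai2, had none in either window. The genes named in this paragraph were chosen after their values were seen.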
